A study of Mus musculus with 6 samples.

Results

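The genes described here act in antigen presentation by MHC class II in cells taken from CT26 tumours. They are the class II chain genes H2-Aa, H2-Ab1 and H2-Eb1, the peptide exchange genes H2-DMa, H2-DMb1 and H2-DMb2, the invariant chain gene Cd74, the regulator Ciita, and the costimulatory ligand genes Cd86 and Cd80. They were chosen by gene symbol, and all 10 are among the 17191 genes of the deposited tables. CT26 is a murine colorectal carcinoma line of BALB/c origin, grown here under the skin of BALB/c mice, all female and 6 to 8 weeks old. Dosing began once tumours had reached 100 to 200 mm3. Mice of the TP-18 group, 3 libraries, received TP-18, whose structure is not used here, orally once a day at 50 mg/kg for 3 weeks. Mice of the vehicle group, also 3 libraries, received vehicle over the same 3 weeks. The labels differ on what was collected: the study design describes macrophages sorted by flow cytometry as CD11b+F4/80+CD206+, the treatment notes describe magnetic selection of CD11b+ cells, and the sample descriptors name the CT26 line. Nothing in them ties each library to a separate mouse. Every p-value below therefore sets a group difference against the spread between these libraries, which may be partly technical.

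Class II molecules are heterodimers of an α and a β chain that carry peptides from the endosome to the cell surface, where CD4+ T cells read them. The invariant chain, the product of Cd74, holds the new dimer's groove closed until cathepsins degrade it, and H2-DM, built from H2-DMa with an H2-DMb chain, then exchanges the last invariant chain fragment for a peptide. Transcription of these genes depends on CIITA, a co-activator that interferon gamma induces in macrophages and that binds to factors sitting on the X and Y boxes of their promoters. CD80 and CD86 bind CD28 on T cells as a costimulatory signal, and NF-kB rather than CIITA is the best known driver of their genes.

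The promoters are shown first, as background. Whether their motifs had a part in the levels of these genes between libraries was not tested. RefSeq promoter sequence on GRCm38.p6 was at hand for H2-Aa, H2-Eb1, H2-DMa, H2-DMb1, H2-DMb2 and Cd80. The letters searched, on both strands, in the 250 bases before each annotated start were, for the X box, AAC, any 3 bases and then TGATG, and, for the Y box, TGATTGG. They were set with these promoters in view, and the motifs do not overlap. Of 32851 promoter windows of this length, 177 (0.539%) held the X letters and 2375 (7.23%) held the Y letters. An X followed by a Y within 60 bases on the same strand was found in 6 windows (0.0183%), those of H2-Eb1, H2-DMb1, H2-DMb2, H2-Ob, Cic and 1700048F04Rik. The stretches below, 5′ to 3′ on the coding strand, have the matched letters in capitals. The H2-Aa window held the Y letters but not the X letters as spelled.
H2-Eb1 (chr17:34305763-34305827, plus strand): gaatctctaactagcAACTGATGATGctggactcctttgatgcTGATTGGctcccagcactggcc
H2-DMb1 (chr17:34153084-34153149, plus strand): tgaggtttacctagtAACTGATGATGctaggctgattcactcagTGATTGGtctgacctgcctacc
H2-DMb2 (chr17:34145113-34145178, plus strand): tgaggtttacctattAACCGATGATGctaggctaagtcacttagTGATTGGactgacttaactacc
H2-Aa (chr17:34287852-34287933, minus strand): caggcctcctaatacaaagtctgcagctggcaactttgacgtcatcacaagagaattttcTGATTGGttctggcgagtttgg

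The X letters began 89, 92 and 121 bases before the annotated start in H2-Eb1, H2-DMb1 and H2-DMb2, and the Y letters followed 28, 29 and 29 bases further on. In H2-Aa the Y letters began 50 bases before the start. The windows of H2-DMa and Cd80 held neither motif as spelled.

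Total counts ran from 17135001 to 17597645 in the TP-18 libraries and from 16371128 to 17004480 in the vehicle libraries. Scaling factors from the trimmed mean of M-values (TMM) ran from 1.05 to 1.07 in TP-18 and from 0.924 to 0.962 in vehicle libraries. CPM below is scaled to the TMM-corrected library total, and FPKM is the authors' value per length, scaled to the plain total. The sort markers were present in every library. Itgam, which encodes CD11b, ranged from 815.5 to 1019 CPM in TP-18 and from 803 to 1319 CPM in vehicle libraries, and Mrc1, which encodes CD206, from 629.6 to 898 CPM and from 721 to 1452 CPM. Adgre1, which encodes F4/80, ranged from 108 to 257 CPM in TP-18 and from 99.9 to 295 CPM in vehicle libraries.

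Class II transcripts differed far more between libraries of a group than between the groups. In the edgeR quasi-likelihood test 0 of the 10 genes passed an adjusted p of 0.05, where 14 of 12721 tested genes (0.11%) did. DESeq2 also called 0 of the 10. At an unadjusted p under 0.05 there were 2 of 10, Cd86 and Cd80, against 16.3% of all tested genes. All 10 genes passed the filter on low counts. Their log2 fold changes were above 0 in 5 and below 0 in 5, with a median of 0.01 beside 0.02 for all tested genes, of which 52.6% were above and 47.4% below 0. With library totals in place of TMM the 3 chain genes, below 0 here, were above 0, and the median of all genes moved by 0.18.

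**Figure D1:**
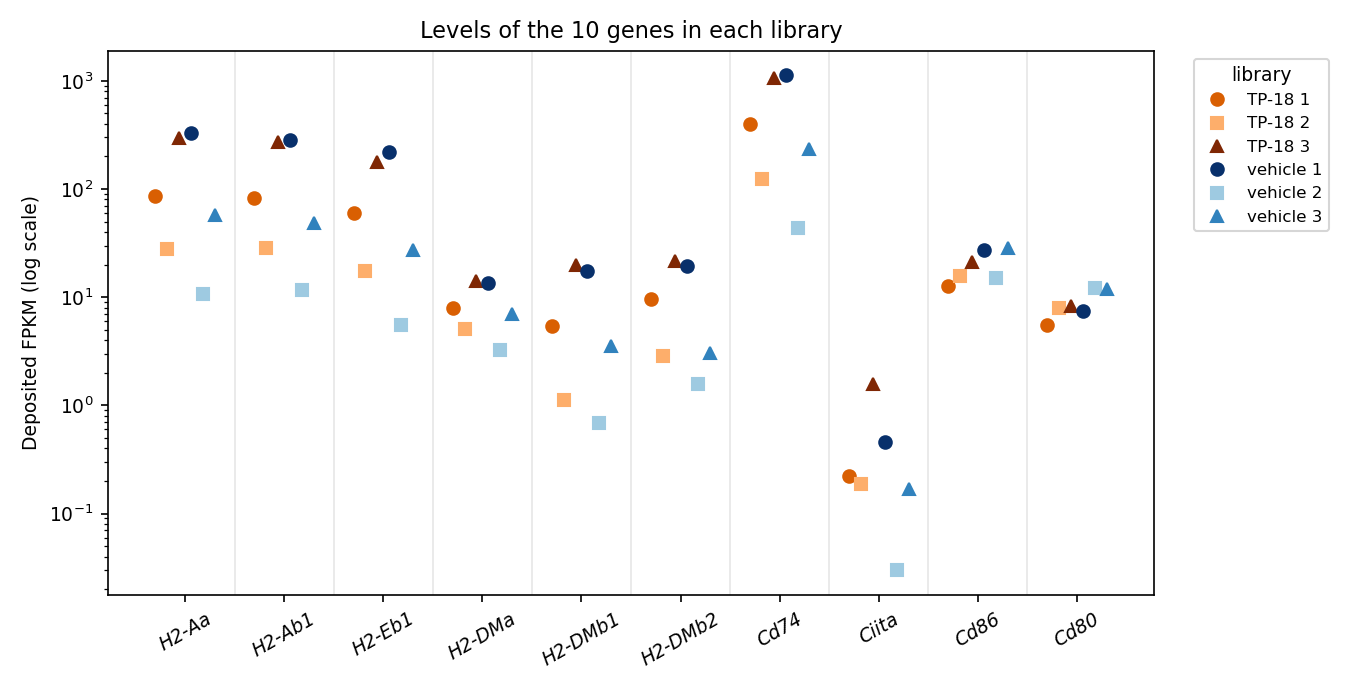
Deposited FPKM (log scale) of the 10 genes, with 1 point per library, TP-18 in orange tones left of vehicle in blue tones. Class II genes span more than 10-fold within each group except for H2-DMa and, in TP-18, H2-DMb2, Cd74, Ciita and H2-Ab1, while Cd86 and Cd80 span under 2-fold.

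The α chain gene H2-Aa (Entrez 14960, GRCm38 chr17:34282744-34287823, minus strand, 5 merged exons) had 86.0, 27.9 and 298 FPKM in TP-18 libraries 1, 2 and 3, against 329, 10.8 and 58.1 FPKM in vehicle libraries 1, 2 and 3. Vehicle 1 and TP-18 3 were high and vehicle 2 was lowest, so the groups overlapped fully. The log2 fold change was -0.11 ± 1.15 (SE; 95% interval -2.77 to 2.56; edgeR adjusted p = 0.975). Its partner H2-Ab1 (Entrez 14961, chr17:34257689-34269419, plus strand), the β chain of I-A, had 81.9, 28.5 and 269 FPKM in TP-18 libraries 1 to 3, against 285, 11.5 and 48.2 FPKM in vehicle libraries 1 to 3. The libraries fell in the same order as for H2-Aa. The log2 fold change of H2-Ab1 was -0.02 ± 1.10 (edgeR adjusted p = 0.996).

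H2-Eb1 (Entrez 14969, chr17:34305867-34316674, plus strand), the β chain of I-E, had 59.4, 17.4 and 178 FPKM in TP-18 libraries 1 to 3, against 218, 5.57 and 27.4 FPKM in vehicle libraries 1 to 3. The highest library was 10.2 times the lowest in CPM within TP-18 and 38.1 times the lowest within vehicle, where H2-Eb1 had the widest range of the chains. Its log2 fold change was -0.14 ± 1.20 (edgeR adjusted p = 0.968). The I-E α chain gene, sought under the symbols H2-Ea and H2-Ea-ps, was not among the genes of the deposited tables.

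The ratio of H2-Aa to H2-Ab1 in FPKM was 1.05, 0.980 and 1.11 in TP-18 libraries 1 to 3, against 1.16, 0.936 and 1.205 in vehicle libraries 1 to 3. Thus the α and β chain of I-A stayed within a narrow ratio while the highest vehicle library was 29.6 times the lowest in H2-Aa CPM and 24.0 times the lowest in H2-Ab1 CPM. H2-Eb1 lay below H2-Ab1 in every library, at ratios of 0.609 to 0.725 in TP-18 and 0.483 to 0.767 in vehicle libraries. Cd74 lay 3.99 to 4.86 times above H2-Ab1 in TP-18 and 3.79 to 4.81 times above it in vehicle libraries. The size of these ratios depends on the lengths behind the deposited FPKM, though their change between libraries does not. Those lengths are 0.297, 0.465 and 0.859 times the merged exons in GENCODE M21 for H2-Aa, H2-Ab1 and H2-Eb1. For Cd74 the value is 0.843, so another gene model could change which chain stands higher. Reads from BALB/c mice were set against GRCm38, and whether they mapped equally well to each chain was not tested.

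Cd74 (Entrez 16149, plus strand), the invariant chain, was the most abundant of the 10 genes per length. It had 398, 123 and 1072 FPKM in TP-18 libraries 1 to 3, against 1119, 43.7 and 232 FPKM in vehicle libraries 1 to 3. The order of libraries was that of the chains, and the log2 fold change was 0.03 ± 1.07 (95% interval -2.46 to 2.53; edgeR adjusted p = 0.994). Together Cd74, the 3 chain genes and the 3 H2-DM genes took 0.0945%, 0.0317% and 0.264% of all counts in TP-18 libraries 1 to 3, against 0.282%, 0.0127% and 0.0564% in vehicle libraries 1 to 3.

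**Figure D2:**
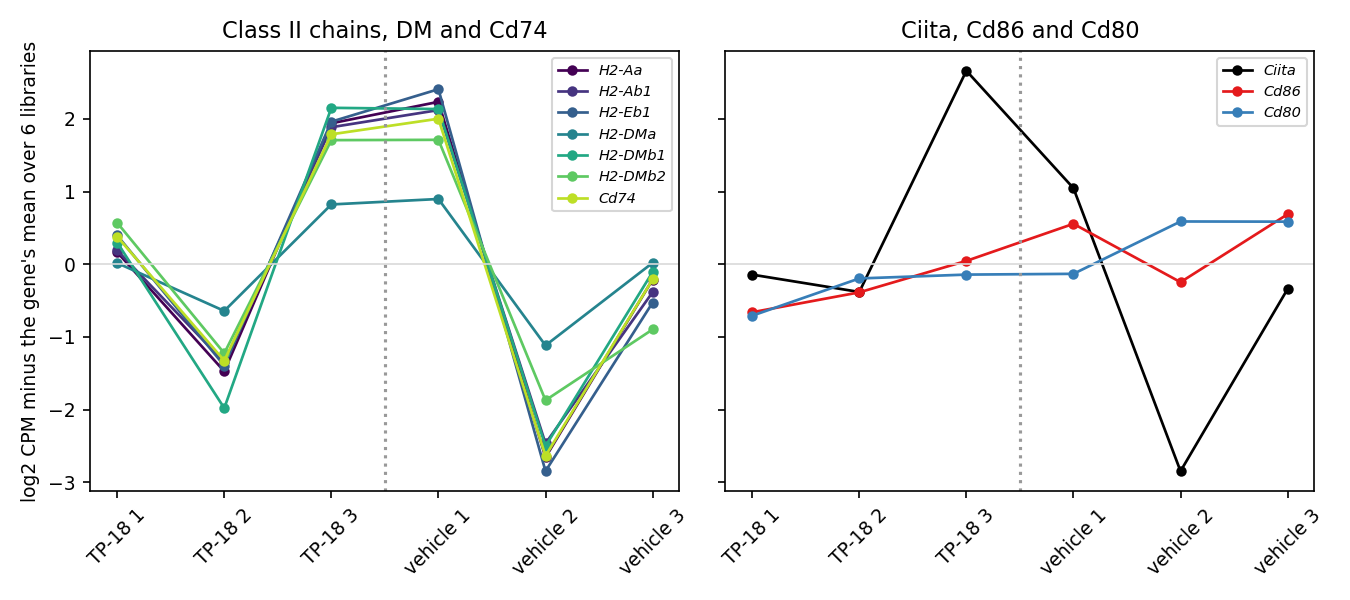
log2 CPM of each gene minus its mean over the 6 libraries, with TP-18 left of vehicle. The lines of H2-Aa, H2-Ab1, H2-Eb1 and Cd74 nearly coincide, H2-DMa follows them with a smaller range, Ciita peaks in TP-18 3, and Cd86 and Cd80 take other courses.

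The H2-DM genes repeated this order with some differences. H2-DMb1 (Entrez 14999, chr17:34153072-34160230, plus strand) had 5.40, 1.13 and 19.8 FPKM in TP-18 libraries 1 to 3, against 17.6, 0.687 and 3.57 FPKM in vehicle libraries 1 to 3. H2-DMb2 (Entrez 15000, chr17:34143307-34151555, plus strand) had 9.71, 2.83 and 21.6 FPKM in the TP-18 libraries, against 19.5, 1.58 and 3.07 FPKM in the vehicle libraries. TP-18 3 and vehicle 1 were level for both β chains, at CPM ratios of 1.01 and 0.997. The log2 fold changes were 0.11 ± 1.15 for H2-DMb1 and 0.34 ± 0.96 for H2-DMb2, with edgeR adjusted p = 0.975 and 0.885.

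The counts of these neighbours are not fully separate. In an alignment of their main GENCODE M21 transcripts, of 1404 and 1424 bases, 1185 of 1255 aligned bases (94.4%) were identical. Of all 50-base windows, 27.2% of the H2-DMb1 transcript and 26.8% of the H2-DMb2 transcript occurred unchanged in the other, so how reads were split between them is uncertain. The ratio of H2-DMb1 to H2-DMb2 in FPKM was 0.556, 0.398 and 0.914 in TP-18 libraries 1 to 3, against 0.901, 0.434 and 1.16 in vehicle libraries 1 to 3.

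H2-DMa (Entrez 14998, chr17:34119541-34139101, plus strand), the α chain of H2-DM, varied least of the class II genes. It had 63.2, 40.05 and 110.5 CPM in TP-18 libraries 1 to 3, against 116, 28.8 and 63.3 CPM in vehicle libraries 1 to 3. The highest library was 2.76 times the lowest in TP-18 and 4.04 times the lowest in vehicle, and the log2 fold change was 0.04 ± 0.52 (95% interval -1.17 to 1.24; edgeR adjusted p = 0.982). In GENCODE M21 its exons share 360 bases with Brd2 on the opposite strand. Brd2, a chromatin reader, had 752, 709.6 and 577 CPM in the TP-18 libraries and 848, 869.6 and 1056 CPM in the vehicle libraries. Whether counting used strand is not given in the sources used here, so reads from the shared stretch cannot be told apart, and the part of Brd2 in the smaller range of H2-DMa was not tested.

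The FPKM of H2-DMa needs a caution. The deposited FPKM values imply a length of 8325 bases for this gene, 2.41 times the 3448 bases of its merged exons in GENCODE M21. On the deposited scale H2-DMa had 8.01, 5.13 and 14.2 FPKM in TP-18 libraries 1 to 3, against 13.5, 3.24 and 7.02 FPKM in vehicle libraries 1 to 3. On the merged exon length the same counts give 19.3, 12.4 and 34.3 FPKM in the TP-18 libraries, against 32.5, 7.81 and 17.0 FPKM in the vehicle libraries. Its place among the other genes per length therefore depends on the gene model.

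Ciita (Entrez 12265, chr16:10480059-10528418, plus strand), the master regulator, was scarce, with 38, 32 and 262 counts in TP-18 libraries 1 to 3, against 76, 5 and 27 counts in vehicle libraries 1 to 3. These are 0.221, 0.189 and 1.56 FPKM in the TP-18 libraries and 0.460, 0.0301 and 0.169 FPKM in the vehicle libraries. The 5 counts of vehicle 2 carry an exact 95% Poisson interval of 1.62 to 11.7, which covers counting error only. The highest value was that of TP-18 3, followed by vehicle 1, and the remaining libraries kept the order of the chains. TP-18 3 had 3.06 times the Ciita CPM of vehicle 1 but only 0.849 times its H2-Ab1 CPM. Relative to H2-Ab1 in FPKM, Ciita stood at 0.2696%, 0.664% and 0.582% in TP-18 libraries 1 to 3, against 0.161%, 0.261% and 0.3502% in vehicle libraries 1 to 3, and the groups overlapped.

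The log2 fold change of Ciita was 1.41 ± 1.04 (95% interval -0.995 to 3.82; edgeR adjusted p = 0.526), the only one of the 10 beyond 1 in size. Without TP-18 3 it was -0.26 (edgeR adjusted p = 0.933), so that 1 library sets its direction. Ciita also shares 329 exonic bases with Dexi on the opposite strand, which had 10.6, 13.6 and 5.68 CPM in TP-18 libraries 1 to 3, against 8.36, 9.25 and 6.55 CPM in vehicle libraries 1 to 3. Dexi was lowest in TP-18 3, where Ciita was highest.

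Costimulatory ligand genes did not follow the class II genes. Cd86 (Entrez 12524, chr16:36603869-36666081, minus strand) had 34.3, 41.5 and 56.0 CPM in TP-18 libraries 1 to 3, against 79.8, 45.7 and 87.4 CPM in vehicle libraries 1 to 3. TP-18 3 exceeded vehicle 2, and the other TP-18 libraries lay below every vehicle library. The mean was 44.0 ± 11.05 CPM in TP-18 and 71.0 ± 22.2 CPM in vehicle libraries (SD, n = 3 each). Its log2 fold change of -0.69 ± 0.28 (95% interval -1.33 to -0.05) did not pass (edgeR adjusted p = 0.283).

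Cd80 (Entrez 12519, chr16:38455561-38496335, plus strand) had 17.2, 24.5 and 25.4 CPM in TP-18 libraries 1 to 3, against 25.6, 42.2 and 42.1 CPM in vehicle libraries 1 to 3. Every TP-18 library lay below every vehicle library, by a small margin at vehicle 1; 1492 of all tested genes (11.7%) lay that way. In the deposited FPKM values, which carry no TMM scaling, the groups overlapped, at 5.53, 7.97 and 8.29 FPKM in TP-18 and 7.52, 12.03 and 11.9 FPKM in vehicle libraries. The mean was 22.4 ± 4.52 CPM in TP-18 and 36.7 ± 9.56 CPM in vehicle libraries (SD, n = 3 each). Its log2 fold change of -0.71 ± 0.25 (95% interval -1.28 to -0.14) did not pass (edgeR adjusted p = 0.238). Cd80 was lowest in TP-18 1 and Cd86 too, but vehicle 2, the highest library for Cd80, was the lowest vehicle library for Cd86. The ratio of Cd86 to Cd80 in FPKM was 2.31, 1.96 and 2.55 in TP-18 libraries 1 to 3, against 3.61, 1.26 and 2.40 in vehicle libraries 1 to 3.

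**Figure D3:**
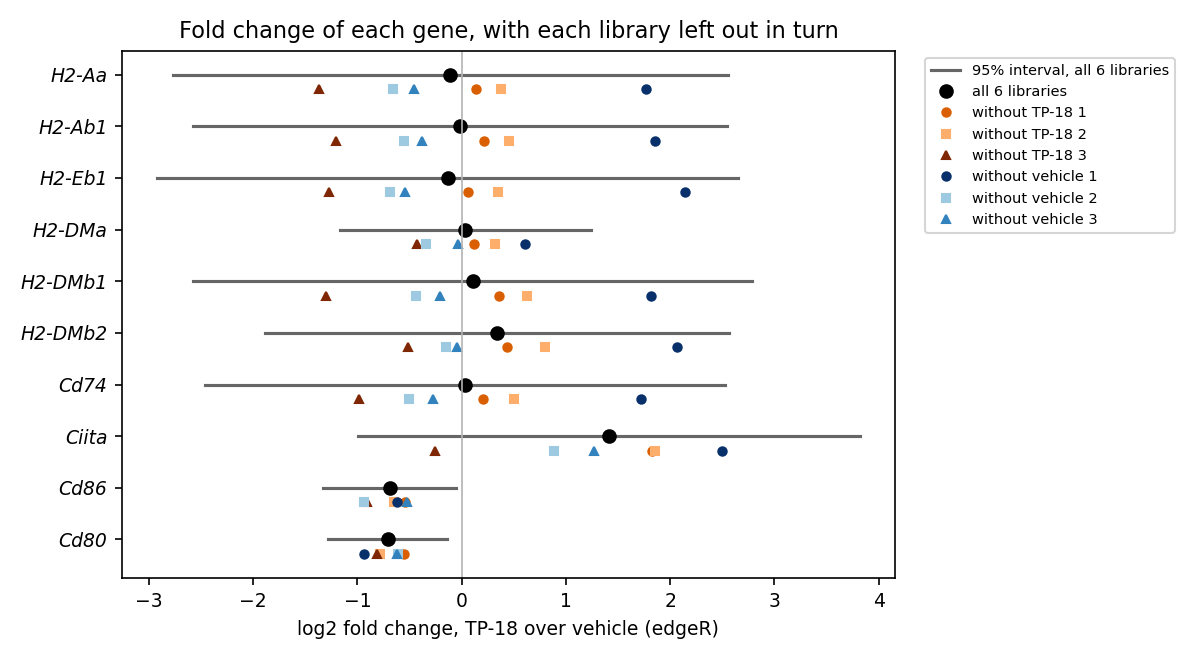
log2 fold change of TP-18 over vehicle from edgeR for each gene, with the 95% interval from all 6 libraries (line) and the value with each library left out (coloured marks under the line). The class II genes cross 0 depending on the library left out, Ciita crosses 0 without TP-18 3 only, and Cd86 and Cd80 stay below 0.

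Over all 6 libraries the order of mean FPKM was Cd74 at 498, H2-Aa at 135, H2-Ab1 at 121, H2-Eb1 at 84.4, Cd86 at 20.1, H2-DMb2 at 9.73, Cd80 at 8.87, H2-DMa at 8.51, H2-DMb1 at 8.02 and Ciita at 0.439. The order of the 3 chains rests on the deposited lengths, which for H2-Aa and H2-Ab1 are 0.297 and 0.465 times the merged exons. This order also rests on how well the BALB/c reads mapped to each chain, which was not tested. Cd74 was above the chains in every library. H2-Aa and H2-Ab1 changed places between libraries, and the 4 genes from H2-DMb2 to H2-DMb1 lay closer together than their spread. In vehicle 2 Cd86 and Cd80 exceeded H2-Aa, H2-Ab1 or H2-Eb1: Cd86 at 15.1 FPKM stood above all 3 chains, and Cd80 at 12.03 FPKM did too.

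The class II genes had some of the largest spreads of all genes tested. The pooled SD of log2 CPM within groups was 2.20 for H2-Eb1, 2.13 for H2-DMb1, 2.10 for H2-Aa, 1.98 for H2-Ab1 and 1.98 for Cd74. For comparison, the median over all tested genes was 0.26. Of the 10 genes, 7 were among the 100 with the largest SD, H2-Eb1 at rank 14 and H2-DMb2 at rank 80 being the first and last of them. H2-DMa had an SD of 0.88, reached by 6.20% of tested genes, while Cd86 at 0.44 and Cd80 at 0.37 were reached by 24.0% and 31.6%. With that spread, the 95% interval for H2-Aa ran from 0.146-fold to 5.88-fold, and changes within it were not detectable with 3 libraries per group.

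**Figure D4:**
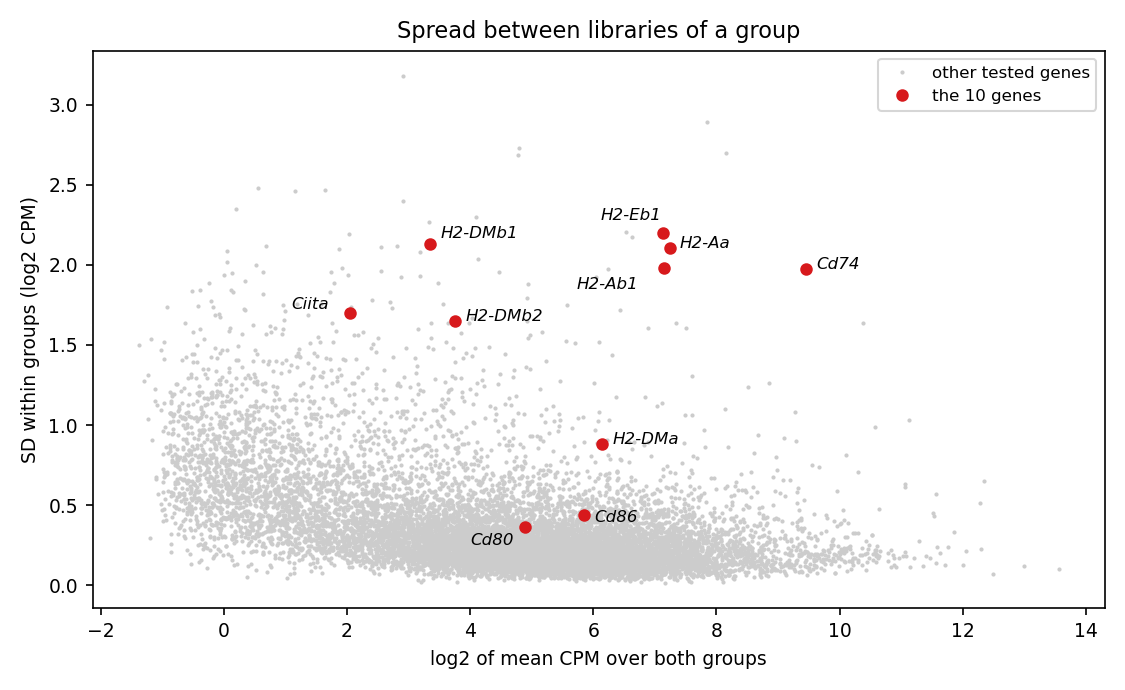
Pooled SD of log2 CPM within groups against log2 of mean CPM for every tested gene (grey) and the 10 genes (red). The class II chains and Cd74 stand at about 2 among genes of their level, H2-DMa at 0.88, and Cd86 and Cd80 lie inside the main cloud.

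Among 10306 other genes with a mean of at least 5 CPM, Cxcl9 had the profile nearest to the mean of H2-Aa, H2-Ab1, H2-Eb1 and Cd74, with a root mean square distance of 0.33 on the centred log2 CPM scale over the 6 libraries. Cxcl9, a chemokine that interferon gamma induces, had 85.9, 17.9 and 136 CPM in TP-18 libraries 1 to 3, against 165, 6.42 and 41.02 CPM in vehicle libraries 1 to 3. The next were Fgd2, Lilra5, Gatm, Tnip3, Slamf9, Ch25h, Zmynd15, Pou2f2 and Serpina3g, at distances of 0.57 to 0.75. By the same measure H2-DMb1 lay at 0.27, H2-DMb2 at 0.48, Ciita at 0.72, H2-DMa at 0.99, Cd86 at 1.57 and Cd80 at 1.96. Nearest to Ciita were Slamf9, Itgax, Il21r, Lair1 and Zmynd15, at 0.62 to 0.72.

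Of the other genes of the class II route, a list chosen with earlier results of these data known, 20 were in the table and 18 were tested, and 0 passed in either direction. Their median log2 fold change was -0.14, with 8 above and 10 below 0. The most abundant per length were the proteases Ctsb, Ctss, Ctsl and Lgmn. Ctss, which cleaves the invariant chain, averaged 1245 ± 245 CPM in TP-18 and 1952 ± 822 CPM in vehicle libraries (SD, n = 3 each; edgeR adjusted p = 0.339). Ctsb averaged 2352 ± 187 CPM in TP-18 and 2876 ± 233 CPM in vehicle libraries (edgeR adjusted p = 0.329). H2-Oa and H2-Ob, the chains of the H2-DM inhibitor, were too low to test, at 0 to 14 counts. Rfx5, a subunit of the X box factor RFX, had 19.4, 19.2 and 19.7 CPM in TP-18 libraries 1 to 3, against 20.5, 21.4 and 26.7 CPM in vehicle libraries 1 to 3. Rfx5, named after its values were seen, was lower in every TP-18 library, as were 11.7% of all tested genes. Its log2 fold change was -0.24 ± 0.16 (edgeR adjusted p = 0.497), and it varied little within the groups. The other RFX subunits did not share this direction. Rfxank was higher in every TP-18 library, as were 11.6% of all tested genes, at 0.50 ± 0.25 (edgeR adjusted p = 0.361). Rfxap was at 0.03 ± 0.17 (edgeR adjusted p = 0.955).

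Of 15 genes upstream of Ciita, all tested, 0 passed, 3 were above and 12 below 0, and the median log2 fold change was -0.37. At an unadjusted p under 0.05, 7 were lower and 0 higher, where 16.3% of all tested genes passed it in either direction. Irf1, an interferon-induced activator of Ciita, had 158, 224 and 192 CPM in TP-18 libraries 1 to 3, against 261, 288 and 249 CPM in vehicle libraries 1 to 3. It was lower in every TP-18 library, as were 11.7% of all tested genes. The log2 fold change of Irf1 was -0.47 ± 0.16 (edgeR adjusted p = 0.238). Ifngr1, a chain of the interferon gamma receptor, had a log2 fold change of -0.37 ± 0.16 (edgeR adjusted p = 0.302), Spi1 of -0.54 ± 0.25 (adjusted p = 0.334) and Stat6 of -0.15 ± 0.14 (adjusted p = 0.623). Ifng itself, named after its values were seen, had 13, 0 and 12 counts in TP-18 libraries 1 to 3, against 18, 2 and 1 counts in vehicle libraries 1 to 3. The libraries with the most Ifng counts were vehicle 1, TP-18 1 and TP-18 3, the same 3 that were highest for H2-Aa.

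Other costimulatory genes gave the same absence of calls, with 0 of 14 tested genes passing, 5 above and 9 below 0 and a median of -0.31. Cd83, a maturation marker of antigen-presenting cells, had 205, 78.5 and 277 CPM in TP-18 libraries 1 to 3, against 336, 132 and 323 CPM in vehicle libraries 1 to 3. Cd274, which encodes PD-L1, a ligand that also binds CD80, had 86.6, 178 and 156 CPM in TP-18 libraries 1 to 3, against 147, 277 and 349.9 CPM in vehicle libraries 1 to 3 (log2 fold change -0.88 ± 0.36; edgeR adjusted p = 0.294). Icam1 and Tnfsf9 had log2 fold changes of -0.32 and -0.30 (edgeR adjusted p = 0.587 and 0.548). MHC class I genes also gave 0 calls among 9 tested, with 6 above and 3 below 0 and a median of 0.09. B2m, the class I light chain, ranged from 984 to 1618 CPM in TP-18 and from 1317 to 1784 CPM in vehicle libraries, a far narrower range than that of the class II chains.

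Markers of other cells were read beside these values, since bulk RNA cannot tell fewer cells of a type from less RNA per cell. The 10 macrophage markers summed to 7592, 6121 and 8650 CPM in TP-18 libraries 1 to 3, against 13828, 6127 and 17731 CPM in vehicle libraries 1 to 3, with Apoe and C1qa the most abundant. Much of this sum was Apoe, with 3119, 2692 and 3229 CPM in the TP-18 libraries, against 7763, 3248 and 11102 CPM in the vehicle libraries. Of the 10 markers, 3 had log2 fold changes above 0 and 7 below 0, and 0 passed the edgeR threshold. C1qa was lowest in TP-18 2 at 633 CPM and in vehicle 2 at 468 CPM, the libraries with the least class II in their groups, as were C1qb, C1qc, Adgre1, Csf1r and Apoe. The other macrophage markers did not share this in both groups. Mrc1 and Mertk were lowest in vehicle 2 among the vehicle libraries, at 721 and 69.5 CPM. Among the TP-18 libraries both were instead highest in TP-18 2. Fcgr1 was highest in vehicle 2 among the vehicle libraries, and Cd68 was lowest in TP-18 1 and vehicle 1. The 7 monocyte markers summed to 404, 1581 and 395 CPM in TP-18 libraries 1 to 3, against 353, 1865 and 1436 CPM in vehicle libraries 1 to 3. Chil3, of this list, had 19.8, 323 and 17.9 CPM in the TP-18 libraries, against 8.91, 758 and 258 CPM in the vehicle libraries, and F13a1 was the other most abundant member. Chil3, Vcan and F13a1 carried the sum and were lowest in TP-18 3 or TP-18 1 and in vehicle 1. Ccr2, of the same list, was instead highest in TP-18 3 and vehicle 1, with 40.3, 32.6 and 112 CPM in TP-18 libraries 1 to 3, against 31.1, 17.1 and 11.7 CPM in vehicle libraries 1 to 3. Ly6c2 was highest in TP-18 3 among the TP-18 libraries but in vehicle 2 among the vehicle libraries. The part of the mix of macrophages and monocytes in the class II levels was not tested.

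All 12 dendritic cell markers summed to 144, 149.7 and 175 CPM in TP-18 libraries 1 to 3, against 177, 289.9 and 179.6 CPM in vehicle libraries 1 to 3, highest in the library with the least class II. Most of this sum was Fscn1 and Cd24a, which other cells express too. The defining members differed in level. Flt3 was low, with 0.647, 1.52 and 0.218 CPM in the TP-18 libraries and 0.983, 0.629 and 1.72 CPM in the vehicle libraries, and Xcr1, Clec9a, Cd209a and Siglech were each under 0.5 CPM in every library. Zbtb46, a transcription factor of classical dendritic cells, had 3.77, 2.77 and 3.06 CPM in TP-18 libraries 1 to 3, against 6.45, 5.98 and 9.13 CPM in vehicle libraries 1 to 3. It lay lower in every TP-18 library, as did 11.7% of all tested genes. The log2 fold change of Zbtb46 was -1.17 (edgeR adjusted p = 0.158). Clec10a, which macrophages share, reached 17.1 CPM in TP-18 and 33.7 CPM in vehicle libraries. Itgax, which macrophages share, had 16.7, 5.32 and 39.5 CPM in TP-18 libraries 1 to 3, against 19.9, 3.15 and 4.37 CPM in vehicle libraries 1 to 3. Batf3 and Ccr7, which were low, were like Itgax and the class II chains highest in TP-18 3 and vehicle 1 within the groups. Batf3 reached 2.18 and 1.41 CPM there, and Ccr7 2.51 and 4.00 CPM. Among the TP-18 libraries, Flt3, Clec10a and Cd24a were instead highest in TP-18 2, and Fscn1 and Zbtb46 in TP-18 1. The 8 B cell markers in the table summed to 12.6, 7.54 and 16.1 CPM in TP-18 libraries 1 to 3, against 11.2, 5.47 and 6.02 CPM in vehicle libraries 1 to 3, with Cd22 and Cd79b the most abundant. This sum, like the class II chains, was highest in TP-18 3 and vehicle 1 and lowest in TP-18 2 and vehicle 2 within the groups. The part of dendritic and B cells in the class II levels was not tested.

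T and NK cell markers were scarce and followed class II in part. The 8 in the table summed to 10.7, 2.33 and 13.2 CPM in TP-18 libraries 1 to 3, against 18.9, 3.52 and 12.4 CPM in vehicle libraries 1 to 3. Cd8a had 53, 4 and 64 counts in TP-18 libraries 1 to 3, against 103, 0 and 7 counts in vehicle libraries 1 to 3. These are the same 3 libraries at the top, vehicle 1, TP-18 3 and TP-18 1, as for Cxcl9 and the class II chains. Cd3e, the most abundant of the list, was highest in vehicle 3 at 9.33 CPM. The part of T cells in the class II levels was not tested.

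**Figure D5:**
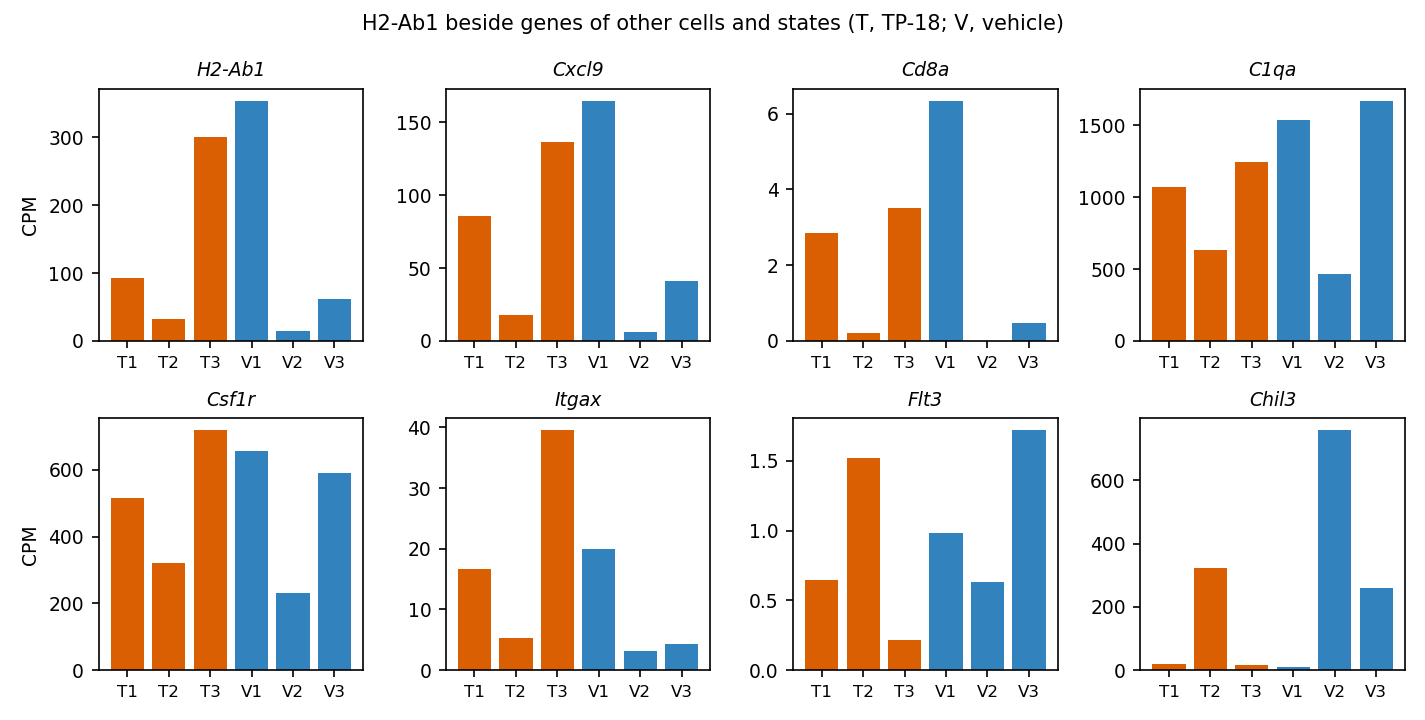
CPM in each library (T1 to T3, TP-18 in orange; V1 to V3, vehicle in blue) of H2-Ab1 and of Cxcl9, Cd8a, C1qa, Csf1r, Itgax, Flt3 and Chil3, each on its own linear axis from 0. Cxcl9 and Cd8a are high in T1, T3 and V1, C1qa and Csf1r are lowest in T2 and V2, and Flt3 stays under 2 CPM.

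The remaining marker lists had 0 genes past the threshold. Neutrophil markers summed to 68.0 to 148 CPM in TP-18 and 68.5 to 157 CPM in vehicle libraries, with S100a8 and Mmp9 the most abundant. Fibroblast markers summed to 1476 to 1830.3 CPM in TP-18 and 739.5 to 1197 CPM in vehicle libraries, led by Col1a2 and Col3a1. At an unadjusted p under 0.05, 6 of these 7 genes were higher in TP-18 and 0 lower, beside the 16.3% of all tested genes in either direction. Endothelial markers, led by Pecam1 and Plvap, summed to 96.3 to 169.7 CPM in TP-18 and 32.3 to 160.4 CPM in vehicle libraries. Epithelial and carcinoma markers summed to 247 to 512 CPM in TP-18 and 344 to 532 CPM in vehicle libraries, nearly all of it Krt20, with Krt18 next. In none of these lists was the sum highest in both TP-18 3 and vehicle 1 within their groups. Single members could differ from the sums. Csf3r of the neutrophil list was highest in those libraries, at 41.3 and 40.7 CPM, while S100a8 was lowest there, at 11.7 and 7.01 CPM. Lum and Cdh1, both low, were also highest in TP-18 3 and vehicle 1 within their groups.

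Leaving out TP-18 3 and vehicle 1, the libraries richest in class II, was tried after the data were seen. The log2 fold changes were then 0.51 for H2-Aa, 0.67 for H2-Ab1, 1.01 for H2-Eb1 and 0.71 for Cd74, and 0 of the 10 genes passed the edgeR test. Without vehicle 1 alone, H2-Eb1 was at 2.14 (edgeR adjusted p = 0.306), and without TP-18 3 alone at -1.27. A direction for class II transcripts under TP-18 thus turned on which single library was left out.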

How the data were processed

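RNA was sequenced from cells of CT26 tumours, 3 libraries from TP-18 treated and 3 from vehicle treated mice. Per the submitters' processing notes, fastp, HISAT2, HTSeq and GRCm38 were used; for versions, annotation and strand the sources used here give nothing. The authors deposited whole-number counts and FPKM for 17191 genes. Each deposited FPKM equals the count divided by the library total and by 1 length per gene.

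Counts of 12721 genes passing filterByExpr (minimum count 10) were tested with edgeR 4.0.16 by quasi-likelihood in R 4.3.3, with TMM factors and Benjamini-Hochberg adjustment at 0.05, TP-18 over vehicle. SE was taken as the size of the log2 fold change over the root of its F value. Alternatives used DESeq2 1.42.0, limma 3.58.1, other scalings, filters and pseudocounts, and each library left out. The script was tested on simulated data. The members and gene lists were chosen with earlier results of these data known. From each pathway list the 4 most abundant tested genes per length, and from each marker list the 2 with the highest CPM, were to be named. Genes nearest in profile were named by distance. Csf1r, Itgax, Flt3, Zbtb46, Clec10a, Batf3, Ccr7, Ccr2, Csf3r, Lum, Cdh1, Rfx5, Rfxank and Rfxap were named after their values were seen. So were other macrophage and monocyte markers, H2-Oa, H2-Ob, Ifng and the markers near 0. Gene positions come from GENCODE M21 on GRCm38 and promoters from RefSeq.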

Additional observations from a re-analysis of the deposited data

How the results depend on the processing

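Under all 17 alternatives 0 of the 10 genes passed an adjusted p of 0.05. The number of all genes past it, 14 with edgeR, was 4 with library totals, 7 with upper-quartile factors, 27 with no filter on low counts, 499 with DESeq2, 2 with limma on log2(FPKM + 1), 2 with limma on log2(FPKM + 0.1), and 0 to 8 with 1 library left out, and the cause was not tested. The sign of the chain genes turned positive: with library totals H2-Aa was at 0.04996, H2-Ab1 at 0.14 and H2-Eb1 at 0.0194, with limma-voom at 0.42, 0.48 and 0.64, with log2(FPKM + 1) at 0.57, 0.64 and 0.76, and with log2(FPKM + 0.1) at 0.60, 0.66 and 0.81. H2-Ab1 was at 0.0441 with upper-quartile factors. Without TP-18 3 and vehicle 1, an alternative chosen after seeing the data, 3 genes passed and the chains were at 0.51, 0.67 and 1.01.

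With 1 library left out, log2 fold changes ran from -1.37 to 1.77 for H2-Aa, -1.20 to 1.86 for H2-Ab1, -1.27 to 2.14 for H2-Eb1, -0.43 to 0.61 for H2-DMa, -1.31 to 1.82 for H2-DMb1, -0.51 to 2.07 for H2-DMb2, -0.98 to 1.72 for Cd74 and -0.26 to 2.50 for Ciita. In these the lowest value was that without TP-18 3 and the highest that without vehicle 1. Cd86 stayed between -0.94 and -0.47 over all alternatives, with adjusted p from 0.175 to 0.644, and Cd80 between -1.03 and -0.46, with adjusted p from 0.121 to 0.580.

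With the replicate block 3 genes passed, 2 of them shared with the fit without it, and H2-Aa, H2-Ab1 and H2-Eb1 were at 0.52, 0.57 and 0.76. Deviations of same-numbered libraries correlated at 0.16, 0.39 and -0.15 for numbers 1, 2 and 3. The best correlated vehicle library was vehicle 1 for TP-18 1 (0.16), vehicle 2 for TP-18 2 (0.39) and vehicle 1 for TP-18 3 (0.50). The labels give a shared number only, and these values cannot decide whether same-numbered libraries are paired. With 3 libraries per group and this spread, changes of several-fold in the chains and Cd74 were not detectable.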

Other observations

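Cd86 and Cd80 had near neighbours of their own. Nearest to Cd86 over the 6 libraries, by root mean square distance of centred log2 CPM, were Ticam2 at 0.08, Cebpa at 0.10, Zfp992 at 0.11, Socs3 at 0.12 and Tbc1d9 at 0.12. Ticam2 encodes an adaptor of Toll-like receptor signalling and Cebpa a myeloid transcription factor. Nearest to Cd80 were 2310022A10Rik, Rab11fip1, Zfp52, Blcap and Card19, at 0.10 to 0.13.

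The length implied by the deposited FPKM of H2-DMa, 8325 bases, equals the genomic span of the neighbouring H2-DMb2 in RefSeq.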
